A study of Mus musculus with 50 samples.

Results

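The transcripts of 10 markers of border-associated macrophages (BAMs) were followed in sorted hippocampal microglia: Mrc1, Cd163, Lyve1, Pf4, F13a1, Cbr2, Ms4a7, Stab1, Dab2 and Colec12. The 10 genes were chosen as known BAM markers and matched by their symbol to the 53700 genes of the count tables, where each was found once. Microglia had been sorted from both hippocampi of male C57BL/6J mice as DAPI-, DRAQ5+, CD45int CD11b+ cells, and the poly-A RNA of 1 mouse made 1 library. Control mice (CTR) were left undisturbed, and mice with early-life stress (ELS) grew up with little bedding and nesting material between postnatal days 2 and 9. Mice were taken at postnatal day 9 (P9) or 200 (P200). The groups were P9-CTR (n = 12) and P9-ELS (n = 13) without injection, and, at P200, CTR-PBS (n = 7), ELS-PBS (n = 6), CTR-LPS (n = 7) and ELS-LPS (n = 5). The P200 mice were injected with PBS or with LPS, a bacterial cell wall component, at 1 mg/kg, and were sacrificed 3 h later. Myelin was removed with Percoll at P200 and not at P9. The P9 and P200 mice were also separate cohorts, and only the P200 mice were injected. Age, cohort, injection and the Percoll step cannot be told apart.

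BAMs are the macrophages of the meninges, the perivascular spaces and the choroid plexus, and unlike microglia they lie outside the brain parenchyma. They take up proteins, lipids and cell debris at the vessels, and many of their markers are scavenger receptors. CD206, the product of Mrc1, is the classical marker that sets them apart from adult microglia, although young microglia are also known to hold Mrc1 and Dab2 transcripts. BAMs carry CD11b as microglia do and are usually higher in CD45, so the gate narrows but does not by itself remove them. In a library of many cells, fewer BAMs and less of a transcript per cell cannot be told apart.

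The promoter sequences of the 3 abundant members are shown because these were the only members with a count in all 50 mice. Mrc1 and Dab2 were far lower at P200 than at P9, and Stab1 was not. The letters are RefSeq promoter sequence (table build GRCm38.p6) that matched GRCm39 exactly once, 5′ to 3′, up to the first annotated base of the gene. Capitals mark AGGAAGT, an ETS core that PU.1 can bind, or TGCTGA, a core element bound by MAF factors, on either strand.
Mrc1, chr2:14233975-14234150, + strand: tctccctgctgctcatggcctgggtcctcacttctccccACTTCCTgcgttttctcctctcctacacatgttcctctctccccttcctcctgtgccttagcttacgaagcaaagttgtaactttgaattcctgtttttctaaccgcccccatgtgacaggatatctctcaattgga
Dab2, chr15:6329020-6329268, + strand: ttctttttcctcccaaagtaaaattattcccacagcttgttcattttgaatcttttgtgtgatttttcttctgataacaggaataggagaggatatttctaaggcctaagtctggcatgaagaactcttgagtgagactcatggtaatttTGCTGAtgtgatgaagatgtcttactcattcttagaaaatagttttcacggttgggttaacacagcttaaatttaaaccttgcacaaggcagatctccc
Stab1, chr14:30890599-30890848, - strand: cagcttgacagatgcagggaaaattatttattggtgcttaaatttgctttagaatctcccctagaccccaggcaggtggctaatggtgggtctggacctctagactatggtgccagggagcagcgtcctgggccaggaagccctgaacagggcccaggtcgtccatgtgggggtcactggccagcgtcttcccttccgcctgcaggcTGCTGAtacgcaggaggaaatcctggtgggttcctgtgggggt
An entry in the promoter table was found for 8 members, with 11 windows of 250 bases before a start site. AGGAAGT was found in windows of 3 of these 8 members, Mrc1, Pf4 and F13a1, and in 7.69% of all 32851 windows. TGCTGA was found for 2 members, Stab1 and Dab2, and in 16.1% of all windows. These matches describe letters only.

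All 10 members are protein-coding genes on separate chromosomes (GRCm39, GENCODE vM39). Mrc1 lies at chr2:14234151-14336926, Cd163 at chr6:124281606-124307560, Lyve1 at chr7:110448585-110462460, Pf4 at chr5:90918479-90922110 and F13a1 at chr13:37051152-37234277. Cbr2 lies at chr11:120620312-120622940, Ms4a7 at chr19:11298403-11313510, Stab1 at chr14:30860970-30890598, Dab2 at chr15:6329269-6470196 and Colec12 at chr18:9707593-9882644. Among genes of the count tables, the exons of Stab1 share 113 bp with those of Nt5dc2 on the other strand, those of Dab2 share 211 bp with the pseudogene Gm18888, and those of F13a1 share 74 bp with the lncRNA Gm30489. Whether reads were counted by strand is not given in the sources used here, so reads of these stretches cannot be assigned to 1 of the genes.

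Libraries held 5152838 to 42231258 counts, and between 12482 and 21100 genes had a count. Fewer than 16000 genes had a count in 3 mice, P9-ELS mice 2 and 3 of label number 19 and P200-CTR-PBS mouse 1 of label number 1. Mice are named by both parts of their label, and what the first number stands for is not defined in the labels. Some numbers occur at both ages, 17 in a CTR group at P9 and in ELS groups at P200. The 10 microglia identity genes, P2ry12 and Tmem119 among them, summed to between 36174 and 87409 CPM (counts scaled to library size) in every mouse, against 130 to 1478 CPM for the 10 BAM markers, so microglial transcripts prevailed in each library. Levels below are CPM after TMM normalization. Called genes had an edgeR quasi-likelihood p, adjusted by Benjamini-Hochberg over 16696 tested genes, of less than 0.05 together with a log2 fold change of more than 1 in either direction. These p-values measure the spread between mice.

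The BAM markers spanned a wide range of levels at P9. Per kb of exon, the mean level in P9-CTR was 90.9 ± 16.4 CPM (SD, n = 12) for Mrc1, 22.3 ± 3.5 for Dab2 and 18.298 ± 2.75 for Stab1. The other 7 members were between 0.27 for Cd163 and 3.28 for Cbr2 on the same scale. Levels of neighbours among these 7 overlapped between mice, and Dab2 and Stab1 differed by little more than 1 SD. In P200-CTR-PBS the order changed, with Stab1 at 16.5 ± 1.53 CPM per kb (n = 7), Dab2 at 2.36 ± 0.68 and Mrc1 at 0.74 ± 0.27, and no other member above 0.16.

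**Figure D1:**
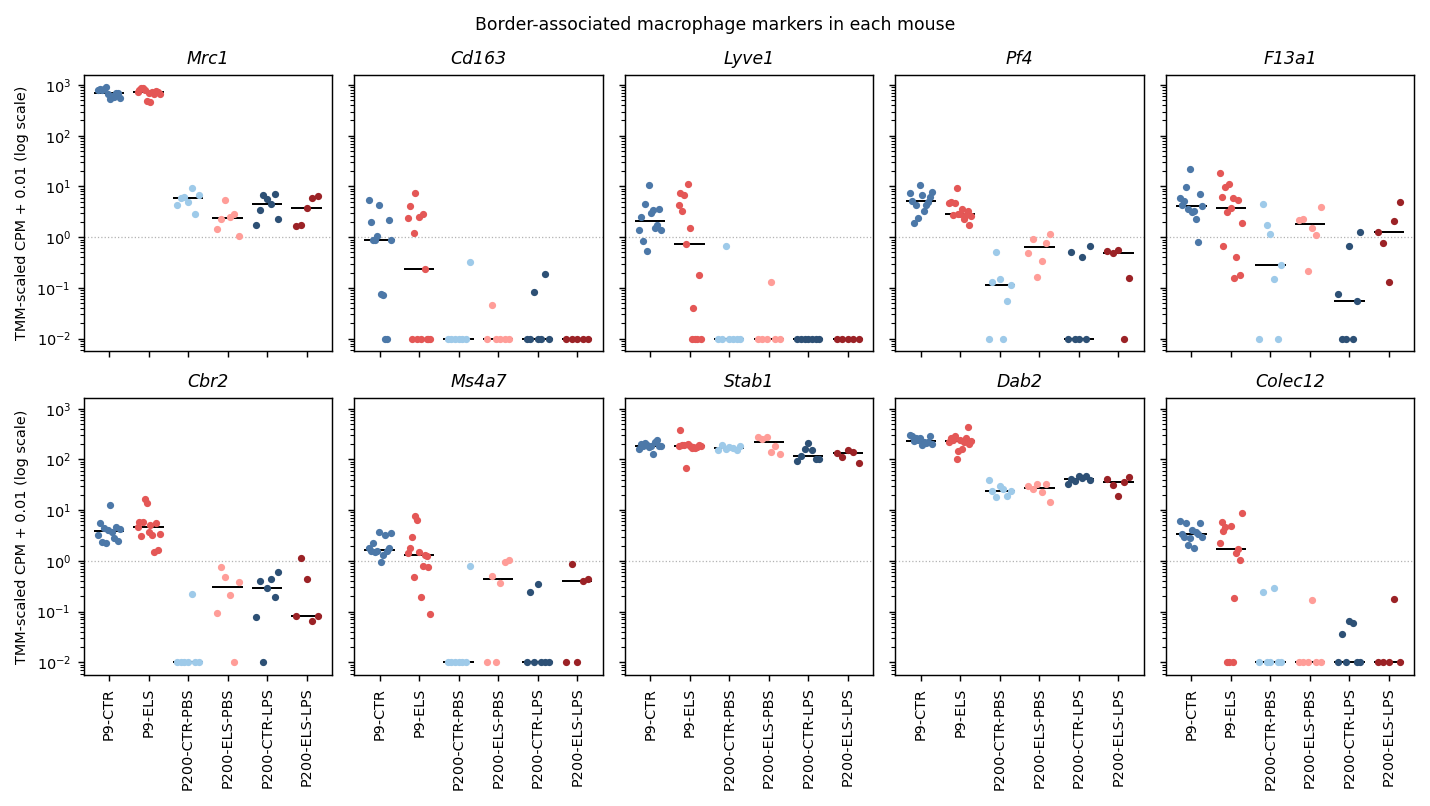
TMM-scaled CPM plus 0.01 (log scale) of each BAM marker in each mouse, with points for mice and bars for group medians; the dotted line is at 1 CPM and points at the bottom have no count. Mrc1 and Dab2 form separate bands at P9 and P200, Stab1 stays between 68.2 and 386 CPM in every mouse, and the other 7 members lie mostly under 1 CPM at P200.

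The first comparison asked how the BAM markers differed between P9 and P200 under each rearing condition. Mrc1 and Dab2 were lower at P200 in both conditions by more than 8-fold, as were Cd163, Lyve1, Pf4, Cbr2 and Colec12 by 5.91- to 157-fold. In CTR mice, 9 of 10 members were called lower at P200 and 0 higher, where 18.5% of all tested genes were called lower, 7.98% higher and 26.4% in all. In ELS mice 7 of 10 were called lower and 0 higher, against 17.5% and 8.68% of tested genes, 26.2% in all. The median log2 fold change over the 10 members was -4.74 in CTR and -3.65 in ELS mice, and over all tested genes it was -0.09 and -0.01. The 6 members that stayed under the filter at P200 (Cd163, Lyve1, Pf4, Cbr2, Ms4a7 and Colec12) passed the filter on low counts only through the P9 mice, which by itself favours a lower value at P200, so these counts describe the members and are not support for a shared change. The 2 age comparisons have no mouse in common.

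Among the receptors, Mrc1, the mannose receptor, stood out. It was between 524 and 910 CPM in P9-CTR (median 699.8) and between 461 and 880 in P9-ELS (median 729). At P200 it was between 2.79 and 9.41 CPM in CTR-PBS (median 5.96) and between 1.03 and 5.38 in ELS-PBS (median 2.37). The ages did not overlap in either condition, and the lowest P9 mouse was far above the highest P200 mouse. The log2 fold change in CTR was -6.95 ± 0.33 (SE) (adjusted p = 2.12e-23, edgeR) and -8.12 ± 0.37 in ELS (adjusted p = 1.4e-23). Mrc1 still had a count in all 25 P200 mice, from 19 to 197 counts.

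Stab1 encodes stabilin-1, a scavenger receptor of macrophages and sinusoidal endothelium, and it was the exception. Its level was 130 to 243 CPM in P9-CTR (median 184), 68.2 to 386 in P9-ELS (median 183), 153 to 193 in CTR-PBS (median 165) and 129 to 280 in ELS-PBS (median 222). All these ranges overlapped. The difference on the log2 scale was -0.15 ± 0.18 in CTR (adjusted p = 0.52, edgeR) and 0.16 ± 0.18 in ELS (adjusted p = 0.51), so that no difference between ages was detected.

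Colec12, a scavenger receptor of the collectin family, was between 1.8 and 6.04 CPM in P9-CTR and between 0 and 8.88 in P9-ELS, with medians of 3.42 and 1.72. In the PBS mice at P200 it had counts in 2 of 7 CTR mice and 1 of 6 ELS mice, and never above 0.29 CPM. On the log2 scale, the fold change in CTR was -5.6 ± 1.04 (adjusted p = 1.57e-05, edgeR) and -6.33 ± 1.18 in ELS (adjusted p = 1.86e-05).

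Cd163, the receptor that clears haemoglobin bound to haptoglobin, was low at both ages. It ranged from 0 to 5.44 CPM in P9-CTR (median 0.89) and from 0 to 7.4 CPM in P9-ELS (median 0.23), and 2 of 12 and 6 of 13 mice had no count. The P200 PBS mice held 9 counts in a single CTR mouse and 1 count in a single ELS mouse. The called log2 fold changes were -4.72 ± 1.39 in CTR (adjusted p = 0.0051, edgeR) and -7.02 ± 1.76 in ELS (adjusted p = 0.0011). From the summed counts the P9 level was 27.3 times that at P200 in CTR (95% interval 14.3 to 60.1) and 266 times in ELS (47.5 to 10530). These exact binomial intervals cover counting error only, since PCR reads without molecular identifiers are not independent molecules.

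Lyve1, a hyaluronan receptor that marks a set of perivascular and meningeal macrophages and also lymphatic endothelium, was between 0.53 and 10.8 CPM in P9-CTR (median 2.1) and between 0 and 11.11 in P9-ELS (median 0.71). At P200 it had 17 counts in 1 of 7 CTR-PBS mice, 3 counts in 1 of 6 ELS-PBS mice and none in the 12 LPS mice. A count of 0 over the group allows up to 0.021 CPM in the CTR-LPS group and up to 0.038 CPM in the ELS-LPS group. The log2 fold change with age was -4.76 ± 1.29 in CTR (adjusted p = 0.0027, edgeR) and -6.67 ± 1.6 in ELS (adjusted p = 0.00081), and by summed counts the P9 level was 23.1 times (14.3 to 39.9) and 109 times (37 to 529) that at P200.

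Dab2 encodes a clathrin adaptor through which surface receptors are taken up. It was between 195 and 301 CPM in P9-CTR (median 235) and between 100.4 and 440.1 in P9-ELS (median 227), and at P200 between 18.14 and 39.9 in CTR-PBS (median 24) and between 14.5 and 32.9 in ELS-PBS (median 27.6). The ages did not overlap. The log2 fold change in CTR was -3.24 ± 0.21 (adjusted p = 2.92e-18, edgeR) and -3.14 ± 0.22 in ELS (adjusted p = 6.9e-17).

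The secreted members came next. Pf4, the chemokine platelet factor 4, was between 1.9 and 10.6 CPM in P9-CTR (median 5.06) and between 1.7 and 9.52 in P9-ELS (median 2.87). At P200 it was between 0 and 0.51 in CTR-PBS (median 0.1) and between 0.16 and 1.14 in ELS-PBS (median 0.62). No P200 PBS mouse reached the P9 mice of its condition, and the log2 fold change in CTR was -5.24 ± 0.73 (adjusted p = 5.16e-08, edgeR) and -2.56 ± 0.65 in ELS (adjusted p = 0.0011).

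F13a1, the A subunit of coagulation factor XIII, which monocytes also express, was between 0.81 and 22 CPM in P9-CTR (median 4.15) and between 0.15 and 18.4 in P9-ELS (median 3.79). At P200 it was between 0 and 4.53 in CTR-PBS (median 0.27) and between 0.21 and 3.91 in ELS-PBS (median 1.84), so the ages overlapped. It was called in CTR with a log2 fold change of -2.38 ± 0.88 (adjusted p = 0.025, edgeR) and not in ELS (-1.46 ± 0.88, adjusted p = 0.19). The CTR call was lost without P9-CTR mouse 1 of label number 51 (adjusted p = 0.063), the mouse with the highest F13a1 of all, without P200-CTR-PBS mouse 1 of label number 15 (adjusted p = 0.0505) and without P200-CTR-PBS mouse 2 of label number 18 (adjusted p = 0.052).

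Cbr2, a carbonyl reductase, was between 2.23 and 12.5 CPM in P9-CTR (median 3.92) and between 1.5 and 16.9 in P9-ELS (median 4.55). At P200 6 of 7 CTR-PBS mice had no count and the other had 3 counts (0.21 CPM), while 5 of 6 ELS-PBS mice had counts, up to 0.75 CPM. The ages did not overlap in either condition. On the log2 scale, the fold change in CTR was -7.29 ± 0.88 (adjusted p = 1.78e-09, edgeR) and -4.16 ± 0.72 in ELS (adjusted p = 5.58e-06), and by summed counts the P9 level was 206 times (70.3 to 1001) and 16.7 times (12.4 to 23) that at P200.

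Ms4a7, a membrane protein that separates BAMs from adult microglia, was between 0.93 and 3.75 CPM in P9-CTR (median 1.66) and between 0.081 and 7.5 in P9-ELS (median 1.33). In CTR-PBS 1 of 7 mice had counts (0.79 CPM), and in ELS-PBS 4 of 6 mice did, up to 1.03 CPM. The ages overlapped in ELS mice only. The log2 fold change in CTR was -3.98 ± 1.03 (adjusted p = 0.0014, edgeR) and -2.07 ± 0.97 in ELS (adjusted p = 0.08), which was no call.

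Counted by mice, the ages did not overlap for 6 of 10 members in CTR (Mrc1, Pf4, Cbr2, Ms4a7, Dab2 and Colec12), where 10.5% of tested genes were lower at P200 without overlap. They did not overlap for 4 of 10 in ELS (Mrc1, Pf4, Cbr2 and Dab2), where this was so for 7.03%. Of the members named, Pf4, Cbr2, Ms4a7 and Colec12 passed the filter only through the P9 mice. That favours a lower value at P200, so these counts are a description. The interaction of ELS and age called 0 of 10 members, against 0.0299% of tested genes, and DESeq2 also called 0. An unadjusted p under 0.05 was found for 3 members, Mrc1 with an interaction of -1.17 ± 0.35 (adjusted p = 0.26), Pf4 with 2.68 ± 0.84 (adjusted p = 0.27) and Cbr2 with 3.13 ± 1.01 (adjusted p = 0.27, all by edgeR). A different change with age in CTR and ELS mice was thus not shown for any member.

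**Figure D2:**
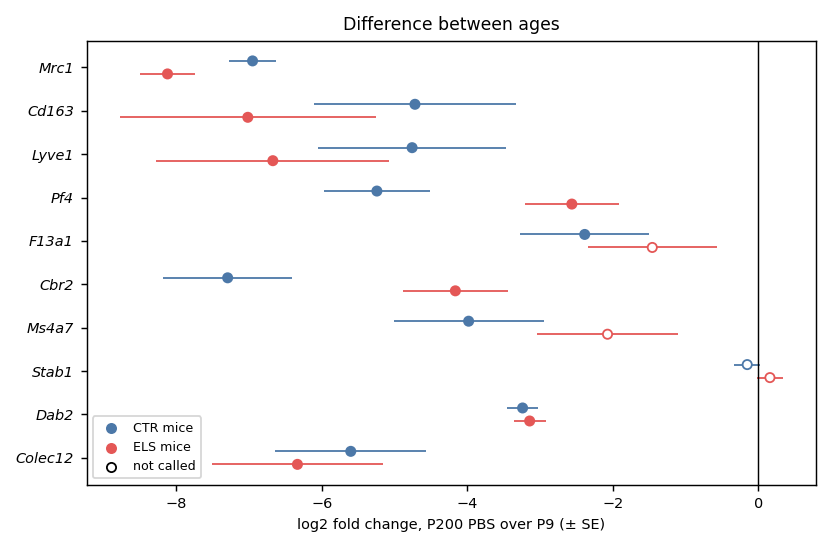
Log2 fold change of each BAM marker between P9 and P200 PBS mice (bars, SE), for CTR and ELS mice; filled points were called. The 9 filled members in CTR and 7 in ELS lie left of 0, and Stab1 lies at -0.15 and 0.16.

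The balance among the markers also differed between ages. Mrc1 was 11.4 to 68.3 times the sum of the 7 low members (all but Mrc1, Stab1 and Dab2) in P9-CTR (median 30.3) and 10.5 to 133 times in P9-ELS (median 33.1). The median was 4.58 in CTR-PBS, where 1 mouse had no count of the 7, and 0.74 in ELS-PBS, where the ratio ranged from 0.16 to 6.5. The CTR-PBS mouse without these counts was mouse 1 of label number 1, where only 12854 genes had a count. Both medians were below the lowest P9 ratio, and the highest CTR-PBS ratio, 61, lay within the P9 range. These ratios are a description, from few counts at P200.

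Other known BAM genes were read from a list of 20, of which 16 passed the filter. In CTR mice 11 of the 16 were called lower at P200 and 0 higher, where 18.5% of all tested genes were called lower, and in ELS mice 9, where 17.5% were. The median log2 fold changes were -3.5 and -3.08, against -0.09 and -0.01 over all tested genes. As for the members, 7 of the 16 passed the filter only through the P9 mice, which favours a lower value at P200, so these counts are a description. Apoe, the main lipid carrier of the brain, was 6275 to 12580 CPM in P9-CTR and 23.3 to 103 in CTR-PBS, with a log2 fold change of -7.21 ± 0.33 (adjusted p = 5.83e-24, edgeR) and of -6.89 ± 0.35 in ELS (adjusted p = 2.85e-22). Fcna, a ficolin of macrophages, was 4.79 to 18.29 CPM in P9-CTR and had no count in any P200 PBS mouse, at least 451-fold lower in CTR and at least 440.2-fold lower in ELS against a limit of 3 counts over the group. Cd38, an NAD-consuming surface enzyme, fell by 7.67 ± 1.15 on the log2 scale in CTR (adjusted p = 2.99e-07, edgeR) and by 7.62 ± 1.21 in ELS (adjusted p = 1.06e-06). Clec10a, a lectin of BAMs and dendritic cells, had no count in the P200 PBS mice and was at least 25.1-fold lower in CTR and at least 22.6-fold lower in ELS. Lectins of the Cd209 family, which mark some adult BAMs, were scarce at both ages: Cd209g and Cd209b did not pass the filter, and Cd209f had means of 0.79 CPM in P9-CTR and 0.12 in CTR-PBS.

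Markers of other cells moved with age as well. Over all tested genes, 18.5% were called lower at P200 in CTR and 17.5% in ELS, and 7.98% and 8.68% higher. How many genes of these lists passed the filter only through the P9 mice, which favours a lower value at P200, was not counted. The 8 neuron genes summed to 71.4 to 197 CPM in P9-CTR and 2.54 to 11.9 in CTR-PBS, and 8 of 8 were called lower in CTR and 6 of 8 in ELS. The 7 genes of leptomeningeal fibroblasts, which border the same spaces as BAMs, summed to 2.07 to 17.4 CPM in P9-CTR and 0 to 1.07 in CTR-PBS, and 6 of the 6 tested were called lower in CTR and 5 in ELS. Of 7 astrocyte genes 6 were called lower and Slc1a3 higher in both conditions, while of 10 microglia identity genes 3 in CTR and 2 in ELS, Tmem119 among them, were called higher and none lower. Tmem119 was 2132 CPM on average in P9-CTR and 8584 in CTR-PBS. The part of these other transcripts, and of the Percoll step, the cohort and the injection, in the lower BAM markers was not tested.

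**Figure D3:**
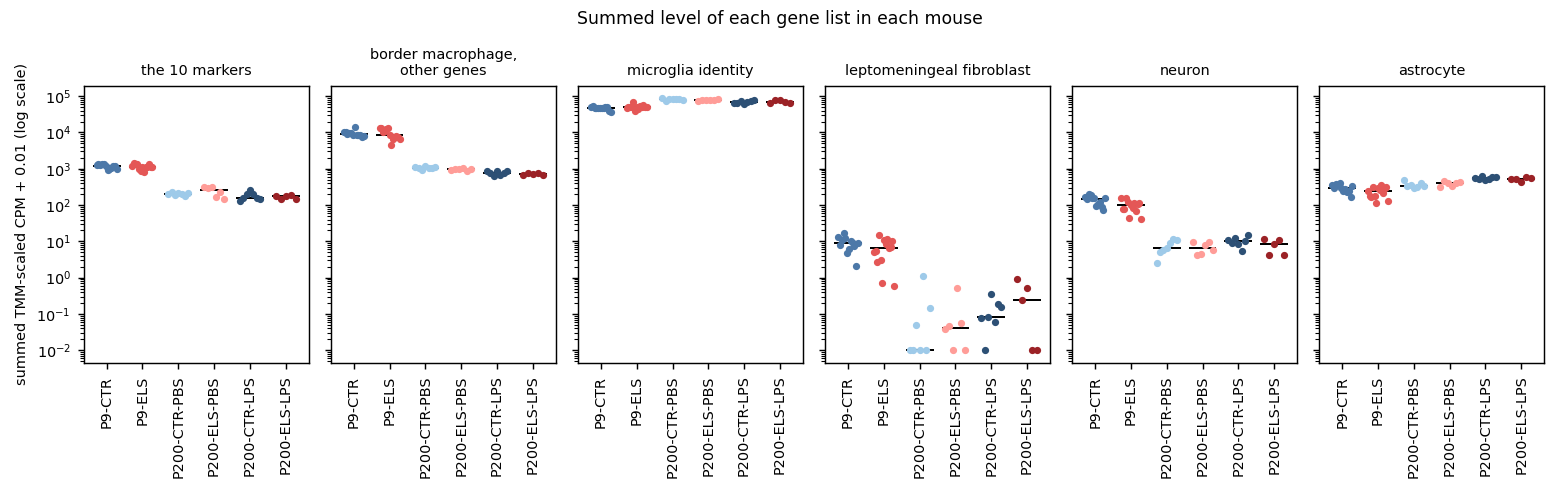
Summed TMM-scaled CPM plus 0.01 (log scale) of 6 gene lists in each mouse, with points for mice and bars for group medians. The sums of the 10 BAM markers, the other BAM genes, the fibroblast genes and the neuron genes are lower at P200. That of the microglia identity genes is higher, and the astrocyte sum, which Slc1a3 leads at P200, is not lower. Mrc1 leads the sum of the 10 BAM markers in P9-CTR, and Apoe leads that of the other BAM genes.

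The next comparison asked whether ELS altered the markers directly after the stress, at P9. It called 0 of 10 members and 0% of tested genes by edgeR. No member had an unadjusted p under 0.05, and DESeq2 also called 0. The median log2 fold change was -0.05 over the members and 0 over all tested genes. For the abundant members the difference was small against its error, 0 ± 0.19 for Mrc1, 0.01 ± 0.15 for Stab1 and -0.07 ± 0.15 for Dab2 (log2, SE). The low members had wider errors, up to 0.89 for Cd163.

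The coefficient of variation (CV) was higher in P9-ELS than in P9-CTR for 7 of the 7 low members, and for 5 of 7 without the P9-ELS mice 2 and 3 of label number 19, which had fewer than 16000 genes with a count. Without these mice the CV in P9-ELS went from 0.53 to 0.33 for Pf4 and from 0.8 to 0.39 for Cbr2, below the P9-CTR values of 0.46 and 0.64. It went from 1.14 to 0.72 for Ms4a7 and from 1.04 to 0.87 for Colec12, against 0.45 and 0.37 in P9-CTR. With all mice, the CV was also higher in P9-ELS for Stab1 (0.36 against 0.15) and Dab2 (0.35 against 0.16), and alike for Mrc1 (0.18 in both groups). The P9-ELS extremes of Stab1 were 386 CPM in mouse 2 of label number 9 and 68.2 in mouse 2 of number 19. Those of Dab2 were 440 CPM in mouse 1 of number 55 and 100.4 in mouse 2 of number 19. For Stab1, Dab2 and Mrc1 the CV without the low-detection mice was not computed. The difference in spread was not tested, and the share of all tested genes with a higher CV in P9-ELS was not computed. Lyve1 was between 0 and 1.48 CPM in the 4 P9-ELS mice of label number 53 and between 0 and 0.17 in the 3 mice of number 55, and between 0.71 and 11.11 in the 6 mice of numbers 9 and 19. Summed over the 7 low members, numbers 53 and 55 averaged 13.2 CPM each, and numbers 9 and 19 averaged 30.4 and 41.2 CPM. The 1 mouse of number 19 with more than 16000 genes had a sum of 33.3 CPM and Lyve1 at 6.8 CPM. In P9-CTR the averages per number were 17.4 to 35.3 CPM. Mrc1 averaged 636 and 720 CPM in numbers 53 and 55 and 802 and 712 in numbers 9 and 19. In P9-CTR, Mrc1 averaged 816 and 857 CPM in numbers 15 and 17, and 594, 638 and 637 in numbers 51, 52 and 58. The lowest mouse of numbers 15 and 17 was at 787 CPM, above the highest of the other numbers, at 711 CPM. These differences were not tested.

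At P200 the question was whether ELS left a lasting mark on basal levels. ELS-PBS against CTR-PBS called 0 of 10 members by edgeR's quasi-likelihood test, against 0.156% of tested genes. The median log2 fold change was 0.18 over the members and 0.01 over all genes. The unadjusted p was under 0.05 for 3 members. Mrc1, with the levels given above, overlapped between the groups and had a log2 fold change of -1.17 ± 0.3 (adjusted p = 0.071). Cbr2, with 45 counts in 5 of 6 ELS mice and 3 counts in 1 of 7 CTR mice, had 3.52 ± 0.91 (adjusted p = 0.074), a ratio of summed counts of 15.3 (95% interval 4.9 to 76.8). Pf4, with 91 counts in 6 of 6 ELS mice and 22 in 5 of 7 CTR mice, had 2.15 ± 0.71 (adjusted p = 0.19). The calls depended on the test: edgeR's likelihood-ratio test called all 3, with 1.14% of genes called, and DESeq2 called Mrc1 and Cbr2, with 0.928%. Cbr2 was also called without CTR-PBS mouse 1 of label number 15, the only CTR-PBS mouse with Cbr2 counts (adjusted p = 0.015), and without ELS-PBS mouse 2 of label number 17 (adjusted p = 0.039), and Mrc1 without ELS-PBS mouse 1 of label number 11 (-1.51 ± 0.3, adjusted p = 0.028).

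These 3 members pointed in different directions, Mrc1 to a lower and Pf4 and Cbr2 to a higher value in ELS mice. Stab1 and Dab2 had log2 differences of 0.32 ± 0.21 (adjusted p = 0.68) and 0.03 ± 0.21 (adjusted p = 1, edgeR). Of the other BAM genes 0 of 16 were called, and 2 had an unadjusted p under 0.05. Among the markers of other cells, Gfap of astrocytes was called lower in ELS-PBS (-3.58 ± 0.82, adjusted p = 0.047), from a mean of 1.28 to 0.11 CPM, and its part in the values above was not tested.

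**Figure D4:**
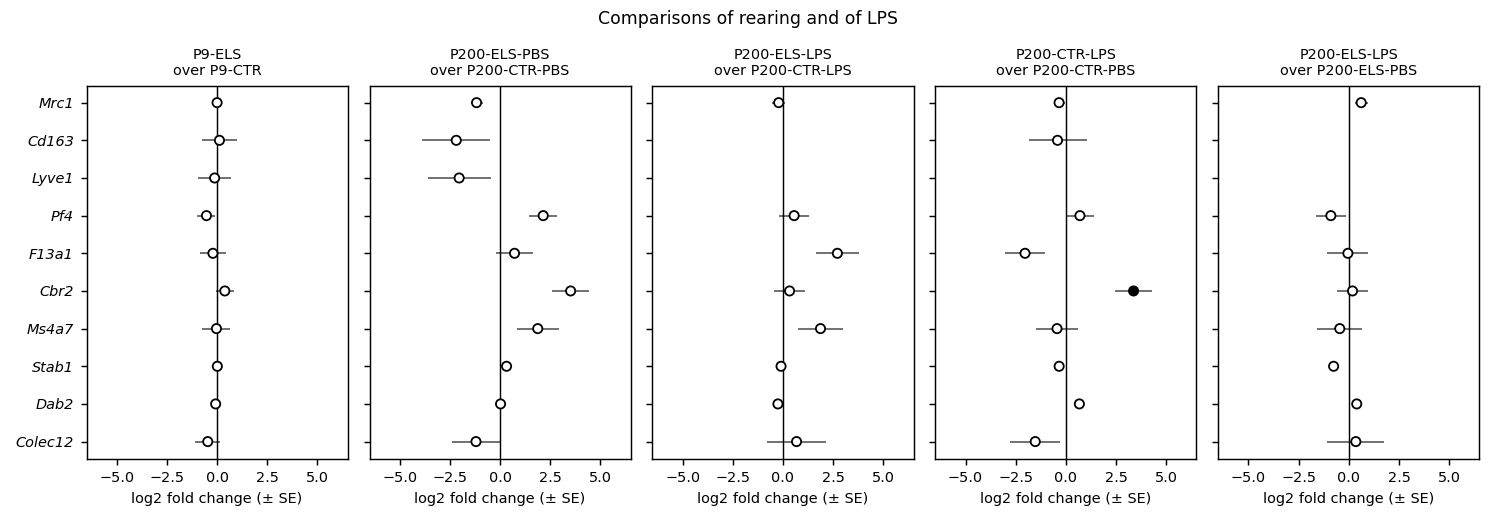
Log2 fold change of each BAM marker (bars, SE) for ELS at P9, ELS at P200 after PBS and after LPS, and LPS in CTR and in ELS mice; filled points were called, and members with no count in 1 of the groups are left out. Cbr2 after LPS in CTR mice, at 3.37, is the only filled point.

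LPS in CTR mice called 1 of 10 members, against 9.62% of tested genes, 6.02% higher and 3.6% lower. Cbr2 rose from 0 CPM in 6 of 7 CTR-PBS mice (highest 0.21) to between 0 and 0.58 CPM in CTR-LPS (median 0.28), with a log2 fold change of 3.37 ± 0.9 (adjusted p = 0.0062, edgeR). The groups overlapped, because 1 CTR-LPS mouse had no count. The call rests on 42 against 3 counts, a ratio of 14.8 (95% interval 4.74 to 74.8), and on the low CTR-PBS value, since ELS-PBS mice had a median of 0.29 CPM without LPS. In fits of the P200 mice alone Cbr2 did not pass the filter and could not be tested.

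Dab2 also differed after LPS in CTR mice, below the fold threshold. It was between 18.14 and 39.9 CPM after PBS and between 33.4 and 47.2 after LPS (medians 24 and 40.6), and the groups overlapped. The log2 fold change of Dab2 was 0.67 ± 0.2 (adjusted p = 0.017, edgeR), and 14.9% of genes had such a p with a log2 fold change above 0.1. Mrc1 was between 1.73 and 7.24 CPM after LPS (-0.34 ± 0.28, adjusted p = 0.48), and Stab1 was between 94.4 and 212 (-0.34 ± 0.2, adjusted p = 0.29). Lyve1, with 17 counts in 1 CTR-PBS mouse and none in CTR-LPS, and F13a1 (-2.04 ± 1.01, adjusted p = 0.18) had unadjusted p under 0.05 and were not called.

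LPS in ELS mice called 0 of 10 members by edgeR and by DESeq2, against 7.86% of tested genes. Stab1 was the 1 member with an unadjusted p under 0.05. It was between 129 and 280 CPM after PBS and at 85.8, 114, 134, 142 and 151 after LPS, so 3 of the 5 LPS mice overlapped with the PBS range. Its log2 fold change was -0.76 ± 0.23 (adjusted p = 0.019, edgeR), below the fold threshold, and 12.3% of genes had such a p with a log2 fold change above 0.1. Dab2 was at 18.7, 30.8, 36.7, 40.9 and 45.7 CPM after LPS, within and above the PBS range of 14.5 to 32.9 (0.39 ± 0.23, adjusted p = 0.3). Mrc1 was at 1.62, 1.7, 3.77, 6.04 and 6.36 CPM (0.61 ± 0.32, adjusted p = 0.24), also overlapping.

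ELS-LPS against CTR-LPS called 0 of 10 members and 0% of tested genes by edgeR, and DESeq2 called 0 members. F13a1 alone had an unadjusted p under 0.05. It was at 0.12, 0.76, 1.25, 2.03 and 4.84 CPM in ELS-LPS and between 0 and 1.24 in CTR-LPS (median 0.045), with a log2 fold change of 2.71 ± 1.07 (adjusted p = 0.86). The interaction of ELS and LPS called 0 of 10 members and 0% of genes by edgeR, and DESeq2 called 0 members. Mrc1 (0.96 ± 0.43, adjusted p = 0.76) and Cbr2 (-3.19 ± 1.18, adjusted p = 0.59) had unadjusted p under 0.05.

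The other BAM genes moved both ways after LPS. In CTR mice 4 of 16 were called higher and 2 lower, where 6.02% of all tested genes were called higher and 3.6% lower. In ELS mice 4 were called higher and 1 lower, where 783 of 16696 tested genes were called higher and 530 lower. Wfdc17, a secreted inhibitor made by activated macrophages, rose by 5.31 ± 0.82 in CTR (adjusted p = 1.65e-06, edgeR) and by 4 ± 0.81 in ELS (adjusted p = 0.00027). Cd38 rose by 4.27 ± 1.16 (adjusted p = 0.007) and 3.74 ± 1.26 (adjusted p = 0.042), from nearly no counts. The transcription factor Maf fell by 1.58 ± 0.22 in CTR (adjusted p = 1.78e-07) and by 1.77 ± 0.25 in ELS (adjusted p = 5.37e-07), and Folr2, a folate receptor of resident macrophages, fell by 1.86 ± 0.64 in CTR (adjusted p = 0.039). The monocyte genes summed to 15.7 to 23.6 CPM in CTR-LPS against 0.71 to 13.1 in CTR-PBS, and to 19.5 to 29.9 in ELS-LPS against 7.19 to 20.6 in ELS-PBS. The neutrophil genes reached 1.84 CPM in CTR-LPS and 9.99 in ELS-LPS, against 0.27 and 0.24 after PBS, with Ly6g and Retnlg at 0 in all 50 mice. Their part in these values was not tested.

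Within the P9 mice the members varied from mouse to mouse by more than the counting of independent reads gives. PCR reads without molecular identifiers are not independent molecules, so this excess need not be variation between mice. The coefficient of variation in P9-CTR was 0.15 for Stab1, 0.16 for Dab2 and 0.18 for Mrc1, and 0.94 for Lyve1 and F13a1 and 1.19 for Cd163, where counting alone gives 0.13, 0.088 and 0.16 for the last 3. F13a1 went from 17 to 364 counts and Cd163 from 0 to 179 within this group. In P9-CTR mouse 1 of label number 51 had the highest Lyve1, Pf4, F13a1 and Ms4a7, and in P9-ELS mouse 2 of label number 19 had the highest Cd163, Pf4, Cbr2 and Ms4a7. The latter mouse is among the 3 with fewer than 16000 genes with a count.

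Pairs of members were then correlated over the 25 P9 mice, as log2 CPM centred on the group mean. The members are given here in 2 sets chosen after their values were seen, as a description. Cd163, Lyve1, Pf4, F13a1, Cbr2 and Ms4a7 had correlations of 0.09 to 0.59 with each other, and Mrc1, Dab2, Stab1 and Colec12 of 0.06 to 0.67, while between the sets r ran from -0.43 for Cbr2 with Dab2 to 0.46 for Mrc1 with Cd163. The highest were Dab2 with Colec12 (r = 0.67, permutation adjusted p = 0.077, and rho = 0.67, adjusted p = 0.028) and Pf4 with Cbr2 (r = 0.59, permutation adjusted p = 0.077, and rho = 0.65, adjusted p = 0.028). Over 90 pairs at both ages, tested by permuting mice within groups, no Pearson correlation passed the adjusted threshold, and these 2 pairs passed by Spearman's rho. Values were centred on the group and not on the label number, so differences between numbers can enter these correlations and their p-values.

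Without the 2 mice farthest from the median of the first gene, r was 0.69 for Dab2 with Colec12 and 0.44 for Pf4 with Cbr2. Without the 2 P9 mice under 16000 genes it was 0.47 and 0.57, and the r of Cbr2 with Dab2 went from -0.43 to -0.03. The values of a mouse share its library size. At P200 the strongest pair was Mrc1 with Pf4 (r = -0.46, rho = -0.48, adjusted p = 0.31 and 0.35 by permutation, n = 25), from counts near 0 for Pf4.

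**Figure D5:**
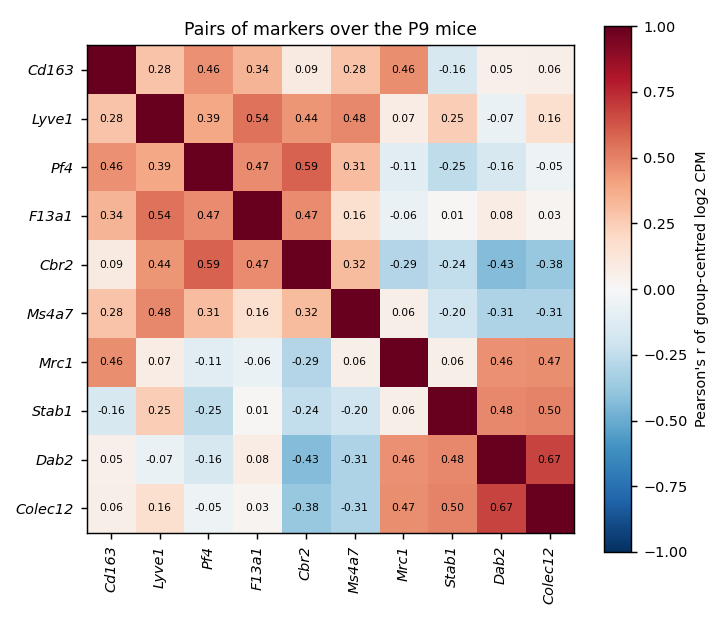
Pearson's r between BAM markers over the 25 P9 mice, from log2 CPM centred on the group mean, with red for positive and blue for negative values. The 6 members from Cd163 to Ms4a7 are positive with each other, up to 0.59, the 4 from Mrc1 to Colec12 up to 0.67, and values between the sets run from -0.43 to 0.46.

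The genes whose pattern over mice was most like the mean z-score of the 10 members were ranked by Pearson's r on the same centred values, among 12815 genes at P9 and 12118 at P200 with a mean log2 CPM of at least 0. At P9 they were Odf2 (0.73), Rrp1 (0.72), Lsp1, Arl11, Nmt1, Anp32a, Timeless and Mia3 (0.67), over 25 mice. At P200 they were Prmt5 (0.74), Sarm1 (0.72), Aars2, Top3a, 1700008J07Rik, Miga2, Etv5 and Sec24c (0.67), also over 25 mice. No gene was in both sets of 8, and none is in the lists of BAM genes. These are the highest values among all genes ranked, and they were not tested. The P200 mean also includes 6 members that did not pass the filter from the P200 mice alone.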

How the data were processed

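Single-mouse libraries of sorted hippocampal microglia were used (50 mice). Per the labels and methods, the authors removed adapters with cutadapt 2.10, aligned reads to GRCm39 with STAR, counted them per gene with HTSeq 0.11.0 and deposited raw counts without normalization. The annotation release and the strand setting are not given in the sources used here. Low-input libraries had no molecular identifiers, which adds amplification noise to genes with few reads.

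The filter required 1 CPM in more than 2 mice and kept 16696 of 53700 genes. Counts were scaled by TMM and fitted as 6 group means with the quasi-likelihood test of edgeR 4.0.16 (R 4.3.3), tested on simulated data. P-values were adjusted over all tested genes, and SE was the log2 fold change over the square root of F. Levels are CPM, and log2 CPM used a prior count of 2. Alternatives used DESeq2 1.42.0 and limma 3.58.1, among others. Permutations numbered 100000 and were two-sided. Python 3.11.15 and scipy 1.17.1 served for summaries.

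The members and gene lists were chosen with earlier results of these data known. All 10 members are named in each comparison, of each other list at most 4 called genes by fold change and genes near 0, and the 8 genes most like the members. Tmem119, Slc1a3, Folr2, Cd209f and Gfap are named for a count or a value they carry. The first number of a mouse label is not defined in the labels, and any origin shared by mice with 1 number is not counted in p-values over mice. Every pair of mice of a group differed by more than the counting of independent reads gives.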

Additional observations from a re-analysis of the deposited data

Results flagged for a closer look

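In all, 11 values stood apart from the other mice of their group at P200, each a high mouse, of 37 groups of 5 to 7 mice examined. In 8 of them the mouse was the only one of its group with a count. Such a mouse is always flagged, so the number of flags cannot be set against chance. In P200-CTR-PBS, mouse 2 of label number 18 had Cd163 at 0.307 CPM (9 counts) and Ms4a7 at 0.786 CPM (23 counts). In the same group, mouse 2 of label number 5 had Lyve1 at 0.662 CPM (17 counts) and Pf4 at 0.506 CPM (13 counts). F13a1 was 4.53 CPM in CTR-PBS mouse 1 of label number 5, and Cbr2 was 0.214 CPM in CTR-PBS mouse 1 of label number 15, from 3 counts. In P200-ELS-PBS, mouse 1 of label number 17 had Lyve1 at 0.121 CPM and Colec12 at 0.161 CPM, from 3 and 4 counts, and Cd163 was 0.0356 CPM in mouse 1 of label number 4, from 1 count. After LPS, Cd163 was 0.180 CPM in CTR mouse 2 of label number 15 and Colec12 was 0.165 CPM in ELS mouse 3 of label number 17.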

How the results depend on the processing

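The 9 and 7 members called lower with age in CTR and ELS mice stayed at 9 and between 7 and 8 under the other tests, normalizations, filters and models with the first label number, with Ms4a7 added in ELS by DESeq2 and by limma voom with that number as random effect. For ELS-PBS against CTR-PBS the count of 0 became 3 with edgeR's likelihood-ratio test and 2 with DESeq2. For LPS in CTR mice the count of 1 became 2 with the likelihood-ratio test (Lyve1 added) and 2 with a log2 fold change threshold of 0.1 (Dab2 added). It became 0 with only the groups compared and, in fits of the P200 mice alone, 0 with a replicate block of that number and 0 without the block, because only 4 members passed the filter there and Cbr2 was not tested. For LPS in ELS mice the threshold of 0.1 gave 1, Stab1. Leaving out 1 mouse at a time gave 8 to 9 for age in CTR, 7 for age in ELS, 0 to 1 for ELS-PBS against CTR-PBS, 1 for LPS in CTR mice and 0 in the other comparisons. The correlation between PBS and LPS mice of 1 label number was -0.041 to 0.084 over all tested genes. It was not compared with mice of different numbers, so it cannot decide whether the numbers pair the mice. The block changed no call that it tested. The alternatives were followed for the log2 fold changes of all members with age and of some members with ELS or LPS at P200, and none of these reversed. Those for ELS at P9 and for the interactions were not followed in this way. Library size alone in place of TMM moved the median of all genes by -0.21 for LPS in ELS mice, -0.13 for LPS in CTR mice and -0.11 for age in CTR mice. At P200, 6 members did not pass the filter on their own, and their values there rest on few counts. The fits of the P200 or P9 mice alone, and the CV without the low-detection mice, were chosen after seeing the data.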

Other observations

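The genes of the MHC class II subset of BAMs, another population of the brain's borders, were read beside the 10 markers, with no test between the lists. Of 6 tested genes, 3 were called higher at P200 in both CTR and ELS mice, H2-Aa, H2-Eb1 and Ccr2, and Cd74 was called lower in both, with Cd52 also called lower in ELS. Over all tested genes 7.98% were called higher in CTR and 8.68% in ELS, and 18.5% and 17.5% lower. H2-Aa, a chain of the antigen-presenting complex, was between 0 and 0.87 CPM in P9-CTR and between 0.86 and 25.8 CPM in P200-CTR-PBS, with a log2 fold change of 5.75 ± 0.93 (adjusted p = 1.21e-06, edgeR). Cd74, the invariant chain, rose after LPS by 2.15 ± 0.32 in CTR (adjusted p = 8.57e-07) and by 2.88 ± 0.36 in ELS (adjusted p = 2.4e-08), where 1 of 6 genes was called in each.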
